A study of Homo sapiens with 4 samples.

Results

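Squamous epithelial cells of the skin and mouth are held in their basal or differentiating state by a small set of transcription factors, and 10 such genes were followed here. The set holds TP63, SOX2, the Krüppel-like factor genes KLF4 and KLF5, the grainyhead-like genes GRHL1, GRHL2 and GRHL3, and OVOL1, ZNF750 and PITX1. Members were found as every probe set that the platform annotation assigns to exactly 1 of these genes, by its current or an older symbol. This gave 26 of 49293 probe sets, for 9 genes of the 18132 that had a probe set with a single symbol; TP63 is not analysed here. No probe set with several gene symbols held a member.

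All 4 arrays were of SCC-15, a long-established cell line from a human squamous cell carcinoma of the tongue. The cells of 2 arrays received a microRNA mimic, that is, a synthetic copy of a mature microRNA, and those of the other 2 received miR-NC, a negative control. Transfection followed seeding by 24 h, with 30 nM of oligonucleotide, and RNA was taken after a further 36 h. The series title names the mimic miR-762 and the sample labels name it miR-585-5p, so the group is called mimic here. A single line was used. The labels do not say whether replicates were separate cultures, and the p-values therefore cover the variation among these arrays alone, which could be technical.

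As background, p63 maintains basal keratinocytes, and SOX2 is a stem cell factor that is often amplified in squamous carcinoma. KLF5 is found in proliferating basal epithelium, whereas KLF4 acts in the upper layers, where it is needed for the skin barrier in mice. The grainyhead-like factors keep epithelial junctions and barrier genes active, OVOL1 is a zinc finger repressor that restrains proliferation and mesenchymal genes, ZNF750 drives terminal differentiation downstream of p63, and PITX1 is a homeodomain factor of hindlimb and oral ectoderm.

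The mature sequences of the microRNAs that the sources name are shown because it is not settled which of them the cells received. They are RefSeq sequences of GRCh38.p14, written 5′ to 3′, with the seed, bases 2 to 8, in capitals. The miR-585-5p sequence lies at chr5:169263649-169263670 on the minus strand and the miR-762 sequence at chr16:30893951-30893972 on the plus strand.
hsa-miR-585-5p: cUAGCACAcagauacgcccaga
hsa-miR-762: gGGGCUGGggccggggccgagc
Both are 22 bases long, and their seeds hold the same base at 2 of the positions. G and C make up 54.5% of miR-585-5p and 90.9% of miR-762.

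Values are log2 RMA intensities, as deposited by the authors on a linear scale, and differences are mimic minus control on that log2 scale. The median intensity was lowest in mimic replicate 1 (17.21) and highest in control replicate 2 (17.55). Across probe sets, which do not vary independently, the mimic arrays correlated at 0.998 and the control arrays at 0.997. Of the 14340 genes above the filter on dim probe sets, 30.1% passed (limma, Benjamini-Hochberg adjusted p under 0.05), 17.7% as higher and 12.3% as lower in the mimic arrays. Higher genes made up 59.0% of these calls, and 44.0% after a further quantile normalization. Without either mimic array 0 genes passed in limma, with 4198 and 4269 at an unadjusted p under 0.05, so every call below was lost there; without control replicate 1 or 2, 653 and 963 genes passed.

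Of the 9 measured members, 4 passed, which is 44.4% of them against the 30.1% of all genes. KLF5 and PITX1 rose, and KLF4 and GRHL1 fell. OVOL1, ZNF750, GRHL2, GRHL3 and SOX2 did not pass. The groups did not overlap for 6 members, the 4 that passed with OVOL1 and ZNF750, where 70.4% of all genes showed no overlap. Of the 9, 0 passed with a change of 2-fold or more, as 2.26% of all genes did. The median difference was -0.02 over the members and -0.02 over all genes, and the median size regardless of sign was 0.20 and 0.18. In bulk RNA, fewer cells that express a gene and less of its RNA per cell cannot be told apart.

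**Figure D1:**
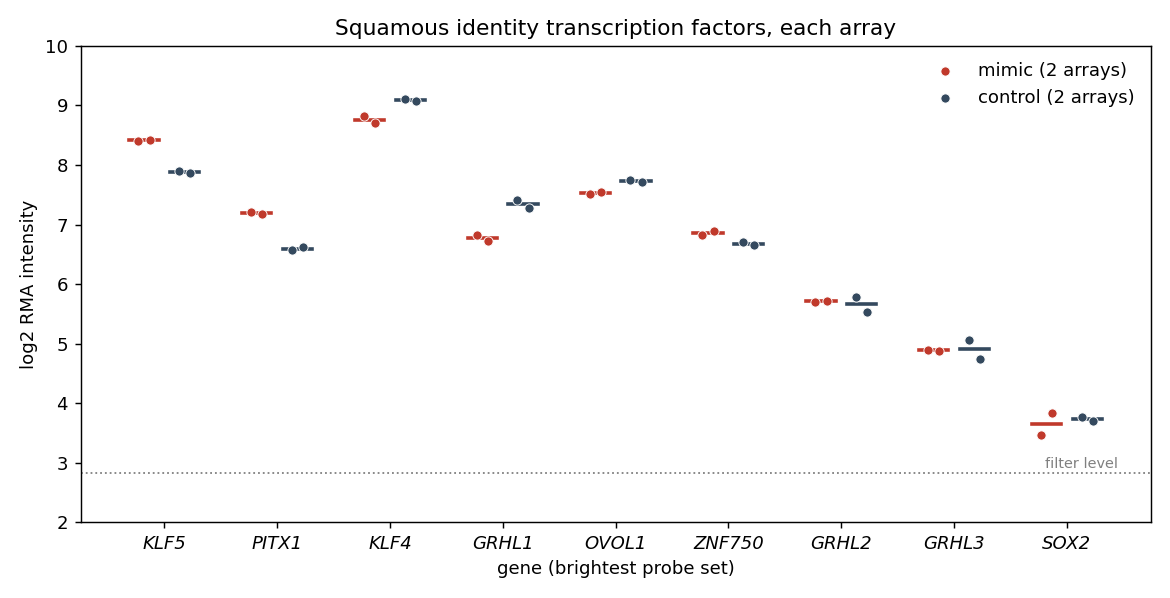
Log2 RMA intensity of the brightest probe set of each of the 9 genes, with 1 point per array, mimic in red to the left of control in dark blue, short lines for the group means (n = 2) and a dotted line at the filter level of 2.83. The groups lie apart for KLF5, PITX1, KLF4, GRHL1, OVOL1 and ZNF750, and overlap for GRHL2, GRHL3 and SOX2; heights of different genes are not comparable.

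The Krüppel-like factors moved in opposite directions. KLF5 had 8.40 and 8.43 in the mimic arrays, against 7.89 and 7.87 in the control arrays. Both mimic arrays were higher than both control arrays, and arrays of a group lay close together. The difference was 0.53 ± 0.057 (SE), 1.45-fold (limma, adjusted p = 0.00481). All 3 KLF5 probe sets passed when probe sets were tested singly, with differences of 0.53, 0.43 and 0.58 and adjusted p between 0.00778 and 0.0303 in limma. The dimmest of them, 11748761_a_at, had 3.54 and 3.88 in the mimic arrays, against 3.12 and 3.13 in the control arrays.

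KLF4 had 8.82 and 8.71 in the mimic arrays, against 9.12 and 9.07 in the control arrays. Both mimic arrays were lower than both control arrays. The difference was -0.33 ± 0.067 (SE), 1.26-fold lower (limma, adjusted p = 0.0238). Its second probe set, 11719633_a_at, had 5.07 and 5.20 in the mimic arrays, against 5.36 and 5.28 in the control arrays. It lay on the same side without overlap but did not pass (-0.18 ± 0.078 SE, limma adjusted p = 0.147).

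PITX1 had the largest increase among the members. It had 7.21 and 7.18 in the mimic arrays, against 6.56 and 6.62 in the control arrays, with no overlap. The difference was 0.60 ± 0.059 (SE), 1.52-fold (limma, adjusted p = 0.0038), a size that ranked 1065 of 14340 genes. Its other probe set, 11721177_at, had 6.73 and 6.72 in the mimic arrays, against 5.98 and 6.13 in the control arrays. That probe set passed too, with a difference of 0.67 ± 0.078 (SE, limma adjusted p = 0.00712). PITX1 was the only member that passed with any array left out: its difference was 0.63 without control replicate 2 (limma, adjusted p = 0.0466), and 0.58 to 0.62 without the others, where it did not pass.

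Of the grainyhead-like genes GRHL1 passed, and its difference from GRHL2 and GRHL3 was not tested. It had 6.83 and 6.73 in the mimic arrays, against 7.41 and 7.28 in the control arrays, with no overlap. The difference was -0.57 ± 0.077 (SE), 1.49-fold lower (limma, adjusted p = 0.00829). Only 1.44% of all genes had a difference as low or lower. The call rested on 11727556_a_at. The other GRHL1 probe sets, 11741549_a_at and 11752309_a_at, had mimic means of 3.19 and 3.05, against control means of 3.27 and 3.20. They were close to the filter level of 2.83, with overlapping groups and differences of -0.08 and -0.15 that did not pass. With the mean of all 3 probe sets in place of the brightest the difference was -0.27 and the call was lost (limma, adjusted p = 0.0506).

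GRHL2 had 5.70 and 5.72 in the mimic arrays, against 5.78 and 5.54 in the control arrays. GRHL3, measured by a single probe set, had 4.90 and 4.88 in the mimic arrays, against 5.06 and 4.75 in the control arrays. For both genes the control arrays lay on either side of the mimic arrays, with control replicate 1 the highest and control replicate 2 the lowest of the 4. The difference was 0.05 ± 0.096 (SE, limma adjusted p = 0.703) for GRHL2, with a 95% interval of -0.19 to 0.30. It was -0.02 ± 0.11 (SE, limma adjusted p = 0.914) for GRHL3, with a 95% interval of -0.31 to 0.27. The control arrays lay further apart (SD 0.17 for GRHL2 and 0.22 for GRHL3) than the mimic arrays (SD 0.014 and 0.017), and the intervals leave differences of either sign open.

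The sign of the GRHL2 difference depended on the probe set. The 4 GRHL2 probe sets above the filter had differences of 0.05, -0.18, 0.07 and -0.03, and none passed. In 11731240_at the mimic arrays, at 3.45 and 3.57, were below the control arrays, at 3.68 and 3.70 (-0.18 ± 0.072 SE, limma adjusted p = 0.132). The fifth, 11752934_a_at, was under the filter, with a mimic mean of 2.76 and a control mean of 2.49, and was not tested.

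OVOL1 had 7.52 and 7.55 in the mimic arrays, against 7.74 and 7.72 in the control arrays. The mimic arrays were lower with no overlap, and the difference of -0.20 ± 0.057 (SE) was just outside the threshold (limma, adjusted p = 0.0541). It passed under 4 alternatives, among them quantile normalization (-0.29, limma adjusted p = 0.0209). The other OVOL1 probe sets, 11725477_at and 11725479_at, gave differences of 0.07 and 0.06, with overlapping groups, and the mean of all 3 probe sets gave -0.02.

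ZNF750 had 6.83 and 6.90 in the mimic arrays, against 6.70 and 6.65 in the control arrays. The mimic arrays were higher with no overlap, but the difference of 0.18 ± 0.062 (SE) did not pass (limma, adjusted p = 0.0793), with a 95% interval of 0.03 to 0.34. All 4 ZNF750 probe sets gave a positive difference, between 0.10 and 0.18, and none passed. In RefSeq annotation ZNF750 lies within the gene TBCD, which had a difference of 0.07 (limma, adjusted p = 0.462).

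SOX2 was dim in every array. Its brightest probe set, 11720992_a_at, had 3.47 and 3.83 in the mimic arrays, against 3.76 and 3.71 in the control arrays. The control arrays fell between the mimic arrays, and the difference was -0.08 ± 0.13 (SE, limma adjusted p = 0.647), with a 95% interval of -0.41 to 0.24. The other probe set tested, 11720991_s_at, had 3.69 and 3.58 in the mimic arrays, against 3.50 and 3.39 in the control arrays, and did not pass (0.19 ± 0.079 SE, limma adjusted p = 0.141). The third, 11720993_at, was under the filter, with a mimic mean of 1.99 and a control mean of 2.15. SOX2 also lies within the noncoding gene SOX2-OT in RefSeq annotation, and which RNA strand the probes read was not examined. Noncoding genes also overlap PITX1 (PITX1-AS1), GRHL1, GRHL2, GRHL3 and OVOL1 there, and the strand was not examined for these either. Protein-coding genes overlap GRHL3 (STPG1) and OVOL1 (LOC124902693) in part, which was not examined further.

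Counted by probe set, 24 of the 26 were above the filter. Of these, 5 were higher and 2 lower, against 14.5% and 7.95% of the 31711 probe sets tested (limma, adjusted over all of them). The groups did not overlap for 13 of the 24, against 66.6% of all probe sets tested. The 5 higher ones are all the probe sets of KLF5 and PITX1, and the 2 lower ones are the brightest of KLF4 and of GRHL1. Probe sets of a gene share its RNA and are not replicates.

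**Figure D2:**
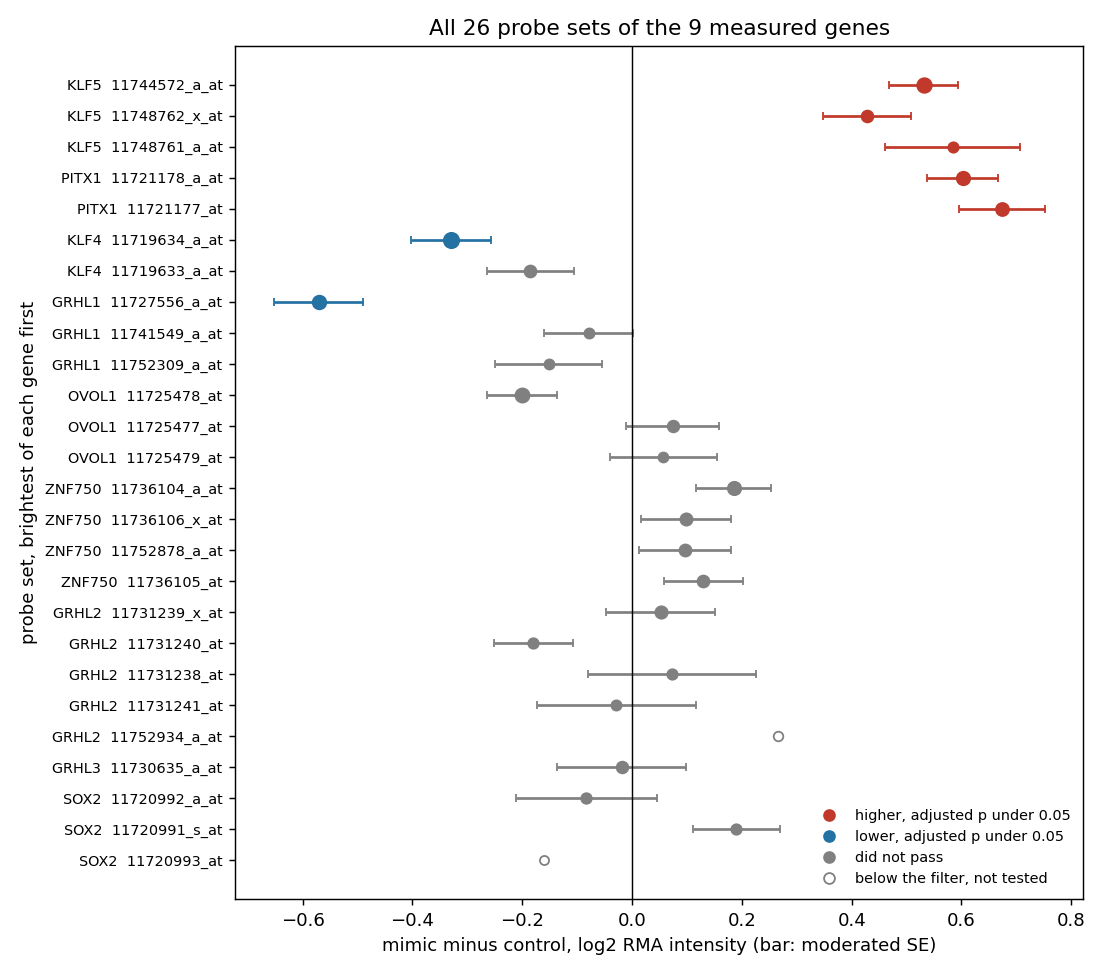
Difference of each of the 26 probe sets, mimic minus control in log2 RMA intensity, with moderated standard errors, grouped by gene with the brightest probe set first and larger symbols for brighter probe sets. The probe sets of KLF5, PITX1, KLF4, GRHL1 and ZNF750 agree in direction within each gene, with all of them passing for KLF5 and PITX1, whereas those of GRHL2, OVOL1 and SOX2 lie on both sides of 0.

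**Figure D3:**
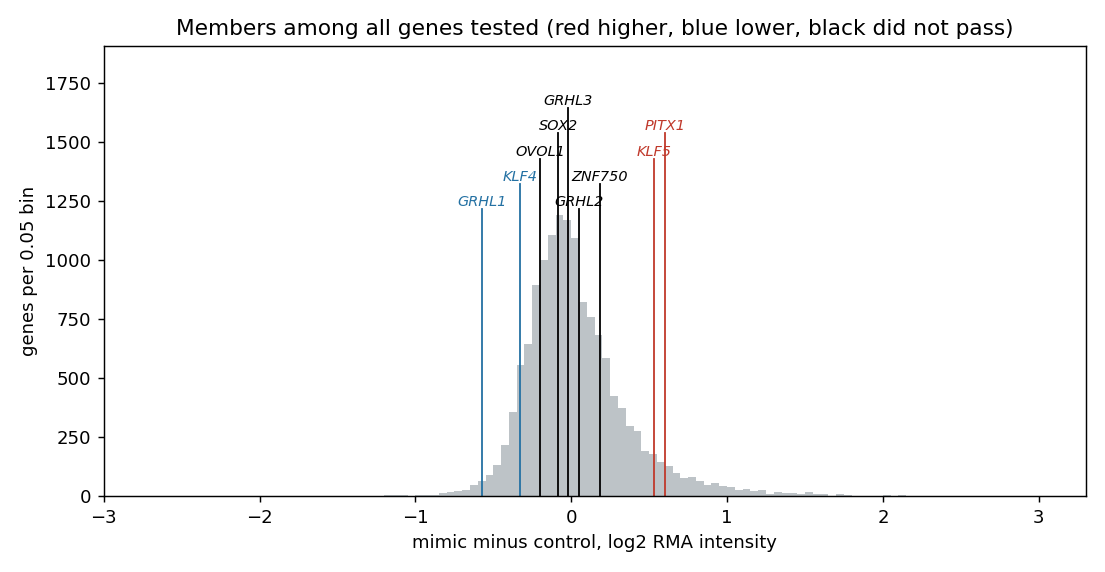
Number of genes per 0.05 of log2 difference for all 14340 genes tested, with a line at each of the 9 members. PITX1 (0.60) and KLF5 (0.53) lie in the upper flank, GRHL1 (-0.57) and KLF4 (-0.33) in the lower, and the members that did not pass lie between -0.20 and 0.18.

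The genes whose values over the 4 arrays were most like those of PITX1, as the smallest Euclidean distance after centring each gene on its mean, were TICRR, a replication initiation factor gene (0.0231), PLOD1, a collagen lysyl hydroxylase gene (0.0235), and PROSER1 (0.0243). For GRHL1 they were the SNARE gene SNAP23 (0.0153), the serine protease gene TMPRSS11E (0.0297) and C12orf76 (0.0393). The likeness is over 4 arrays only and describes these arrays. SNAP23, for example, had 7.61 and 7.52 in the mimic arrays, against 8.20 and 8.06 in the control arrays.

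The promoter windows of the 4 members that passed are shown, from 250 bases before to 50 after a RefSeq gene start (GRCh38.p14), 5′ to 3′ along the gene, since Krüppel-like factors bind CACCC elements and GC boxes and are themselves members. Capitals mark CACCC and GGGCGG on either strand (GGGTG and CCGCCC on the other). KLF5 has windows at 2 starts, chr13:73054726-73055025 and chr13:73058755-73059054 on the plus strand. PITX1 is at chr5:135034179-135034478 on the minus strand, GRHL1 at chr2:9951443-9951742 on the plus strand and KLF4 at chr9:107489720-107490019 on the minus strand.
KLF5, upstream start: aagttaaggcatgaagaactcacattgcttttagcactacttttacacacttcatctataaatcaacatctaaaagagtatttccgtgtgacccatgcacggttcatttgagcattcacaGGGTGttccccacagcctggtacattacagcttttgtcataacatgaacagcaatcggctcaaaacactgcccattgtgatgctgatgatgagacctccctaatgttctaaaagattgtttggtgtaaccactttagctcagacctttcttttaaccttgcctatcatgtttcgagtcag
KLF5, downstream start: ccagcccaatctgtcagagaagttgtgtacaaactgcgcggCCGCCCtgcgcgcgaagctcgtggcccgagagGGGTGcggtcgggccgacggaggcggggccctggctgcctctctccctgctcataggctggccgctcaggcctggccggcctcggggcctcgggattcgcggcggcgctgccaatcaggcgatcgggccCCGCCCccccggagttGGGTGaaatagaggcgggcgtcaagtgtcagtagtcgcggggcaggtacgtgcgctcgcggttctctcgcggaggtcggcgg
PITX1: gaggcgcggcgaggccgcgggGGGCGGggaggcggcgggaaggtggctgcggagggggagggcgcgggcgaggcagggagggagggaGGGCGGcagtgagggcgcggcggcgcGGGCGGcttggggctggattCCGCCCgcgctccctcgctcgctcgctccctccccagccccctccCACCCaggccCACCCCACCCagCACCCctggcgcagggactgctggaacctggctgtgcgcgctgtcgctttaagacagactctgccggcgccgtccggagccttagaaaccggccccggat
GRHL1: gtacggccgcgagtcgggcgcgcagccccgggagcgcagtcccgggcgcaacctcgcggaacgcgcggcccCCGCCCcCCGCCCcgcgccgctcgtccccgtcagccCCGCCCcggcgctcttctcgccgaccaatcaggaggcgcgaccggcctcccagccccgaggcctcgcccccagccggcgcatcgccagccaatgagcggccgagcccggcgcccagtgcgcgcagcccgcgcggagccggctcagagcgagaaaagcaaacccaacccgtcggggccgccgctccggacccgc
KLF4: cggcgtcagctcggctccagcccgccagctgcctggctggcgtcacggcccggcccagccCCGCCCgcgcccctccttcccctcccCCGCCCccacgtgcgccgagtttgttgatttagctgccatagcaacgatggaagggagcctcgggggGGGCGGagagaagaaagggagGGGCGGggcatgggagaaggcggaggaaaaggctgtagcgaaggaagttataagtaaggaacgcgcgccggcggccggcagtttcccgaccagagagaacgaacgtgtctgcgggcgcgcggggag

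GGGCGG occurred 2 times in the downstream KLF5 window, 4 times in PITX1, 3 times in GRHL1 and 4 times in KLF4, and 0 times in the upstream KLF5 window; 45.0% of 35116 windows of this length hold it. CACCC occurred 1 and 2 times in the KLF5 windows, 4 times in PITX1, and 0 times in GRHL1 and KLF4, and 59.9% of all windows hold it. The 2 motifs shared 0 bases in these windows. AACCGGTT, the grainyhead-like consensus (in 0.134% of all windows), and TAATCC, bound by PITX factors (in 6.36%), were searched on both strands and are not in these letters. ATTGTT, a SOX motif (in 10.1%), occurred 1 time, in the upstream KLF5 window. Such matches describe the letters of these windows and are no evidence of binding.

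The labelled cell type was checked on marker genes, by whether their probe sets were above the filter. All 6 squamous epithelial markers were, with mean log2 intensities of 8.74 to 12.07. Under it were 1 of 3 leukocyte markers (PTPRC, at 1.36), 4 of 5 fibroblast markers (COL3A1, DCN, LUM and PDGFRA) and 1 of 3 melanocyte markers (MLANA), while all 3 endothelial markers were above it. The summed intensity of the squamous markers was 9730 and 9977 in the mimic arrays, against 7409 and 6986 in the control arrays. The sum is on the linear scale, so the brightest markers, KRT5 and KRT14, weigh most in it. Of the 6 squamous markers, KRT5 (12.31 in mimic, 11.83 in control), KRT14 (10.80 and 9.65) and PKP1 (9.05 and 8.44) were higher in mean log2 intensity. EPCAM (9.48 in mimic, 9.33 in control) and CDH1 (9.75 and 9.72) differed less. DSG3 had 9.79 in mimic and 9.85 in control arrays. The leukocyte markers summed to 54.5 and 54.6 in the mimic arrays, against 45.8 and 39.0 in the control arrays, mostly CD14. Sums were lower in the mimic arrays for endothelial markers (59.7 and 58.3, against 64.5 and 65.4 in control) and fibroblast markers (30.3 and 34.5, against 37.6 and 38.8 in control), and overlapped for melanocyte markers (41.4 and 47.9 in mimic, 45.5 and 45.2 in control). Their part in the results was not tested.

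Genes linked to p63 in basal keratinocytes are described although TP63 itself is not analysed here. Among 19 such genes above the filter, 11 rose in limma, 0 fell and 8 did not pass. This is 57.9% of them, where 30.1% of all genes passed and 17.7% of all genes rose. The median difference was 0.28, against -0.02 over all genes. The list, like the others below, was chosen with earlier results of these data known, so these shares are no independent test. FGFR3, a fibroblast growth factor receptor gene, had 7.20 and 7.38 in the mimic arrays, against 5.51 and 5.02 in the control arrays (2.03 ± 0.17 SE, limma adjusted p = 0.00282). Its second probe set gave -0.46, and the mean of both gave 0.78, which passed (limma, adjusted p = 0.00256). The basal keratin genes KRT15 (1.70 ± 0.12 SE) and KRT14 (1.15 ± 0.12 SE) had single probe sets and were higher too. The KRT14 probe set is of the _x_at kind, which can match several transcripts. With control replicate 1 or 2 left out, the differences were 2.27 and 1.78 for FGFR3, 1.86 and 1.54 for KRT15. For KRT14 they were 1.32 and 0.99. The number of higher genes in this list was 6 without control replicate 1 and 5 without control replicate 2.

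Genes linked to the grainyhead-like factors in epithelia went both ways. Among 17 of them above the filter, 3 rose in limma (LMO4, CLDN3 and ST14), 5 fell (NECTIN4, CLDN4, OCLN, PRSS8 and RAB25) and 9 did not pass, 47.1% against the 30.1% of all genes, with a median of -0.07. NECTIN4, an adherens junction gene, had 6.37 and 6.27 in the mimic arrays, against 7.07 and 6.93 in the control arrays (-0.68 ± 0.077 SE, limma adjusted p = 0.00543). The mean of its 3 probe sets gave -0.45, which passed as well. The tight junction gene CLDN4 fell (-0.44 ± 0.11 SE), a call lost without a filter on dim probe sets (limma, adjusted p = 0.0506), and LMO4, a LIM-only cofactor gene, rose (0.49 ± 0.080 SE), a call lost without probe sets of the _s_at and _x_at kinds, which can match several transcripts (0.24, limma adjusted p = 0.171). The list had 2 higher and 2 lower genes without the filter on dim probe sets, and 1 higher and 2 lower without those kinds of probe set. In the latter setting only 14 genes of the list were tested. CLDN3, CLDN4 and OCLN were not measured there, so their calls were neither kept nor lost. ST14 lost its call under 4 of 10 alternatives with all 4 arrays, PRSS8 and RAB25 under 3 of 10 each. Without control replicate 1 none of the list's genes passed, and without control replicate 2 there were 0 higher and 2 lower.

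Terminal differentiation genes, the programme in which KLF4, ZNF750, OVOL1 and GRHL3 act, had 8 of 24 higher, 1 lower (ABCA12, a lipid transporter gene) and 15 that did not pass (limma). This is 37.5% against the 30.1% of all genes, with a median of 0.13. LORICRIN, FLG and CDSN, also in this list, were under the filter on dim probe sets and are not in these counts. The ABCA12 call was lost under 5 of 10 alternatives with all 4 arrays, among them no filter on dim probe sets (limma, adjusted p = 0.0667) and the mean of its probe sets (-0.08). KRT13, a keratin of stratified oral epithelium, had 5.08 and 5.17 in the mimic arrays, against 3.67 and 4.13 in the control arrays (1.22 ± 0.16 SE, limma adjusted p = 0.00716). KRTDAP, a gene of differentiating keratinocytes (1.12 ± 0.094 SE), and the cornified envelope gene SPRR1A (1.04 ± 0.085 SE) rose too. Of these, SPRR1A did not pass with any array left out. With control replicate 1 or 2 left out, 3 genes of the list passed as higher each time.

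Mesenchymal genes, several of which are repressed by OVOL1 and GRHL2 in other epithelial systems, had 4 of 8 higher (VIM, CDH2, SNAI2 and TWIST2), 1 lower (SNAI1) and 3 that did not pass (limma), 62.5% against the 30.1% of all genes, with a median of 0.18. The TWIST2 call was lost under 5 of 10 alternatives with all 4 arrays, and its difference was -0.17 without _s_at and _x_at probe sets. The SNAI1 call was lost with an intensity trend (limma, adjusted p = 0.0613). ZEB1 and ZEB2, also in this list, were under the filter on dim probe sets and are not in these counts. VIM, the vimentin gene, had 7.44 and 7.54 in the mimic arrays, against 6.94 and 6.58 in the control arrays (0.73 ± 0.13 SE, limma adjusted p = 0.0173). CDH2, the N-cadherin gene (0.58 ± 0.086 SE), and SNAI2, a repressor gene that basal keratinocytes also express (0.43 ± 0.056 SE), rose. VIM alone passed without control replicate 1 (0.91), and 0 genes of the list passed without control replicate 2, where VIM was at 0.55 (limma, adjusted p = 0.0595).

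Other transcription factors of stratified epithelia had 1 of 22 higher, 2 lower and 19 that did not pass (limma), 13.6% against the 30.1% of all genes, with a median of 0.08. EHF, an ETS factor gene of differentiating epithelia, had 7.23 and 7.18 in the mimic arrays, against 7.79 and 7.69 in the control arrays (-0.54 ± 0.068 SE, limma adjusted p = 0.00702), and all 6 of its probe sets were lower, with a mean of -0.30 that passed (limma, adjusted p = 0.0171). TFAP2C, an AP-2 factor gene, fell (-0.37 ± 0.073 SE), and the forkhead gene FOXE1 rose (0.50 ± 0.082 SE). Without control replicate 1 none of these genes passed, and without control replicate 2 there were 1 higher and 1 lower. These counts moved with the settings, to 3 higher and 2 lower after centring arrays on their medians, 5 higher and 5 lower with an intensity trend, and 1 higher and 5 lower after quantile normalization.

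Relatives of the members within their gene families had 5 of 16 higher (SOX7, TP73, KLF7, KLF13 and KLF11), 1 lower (SOX4) and 10 that did not pass (limma), 37.5% against the 30.1% of all genes, with a median of 0.16. KLF11 was at -0.01 without _s_at and _x_at probe sets and did not pass there. SOX7 had 6.43 and 6.29 in the mimic arrays, against 5.66 and 5.56 in the control arrays (0.75 ± 0.078 SE, limma adjusted p = 0.0044), although 1 of its 3 probe sets was at -0.05 and their mean gave 0.49, which passed (limma, adjusted p = 0.00495). TP73, the p73 gene, rose in its brightest probe set (0.73 ± 0.071 SE), but only 2 of its 8 probe sets were higher and their mean gave 0.04, which did not pass (limma, adjusted p = 0.75). KLF7 rose (0.63 ± 0.078 SE), with all 4 probe sets higher. The counts were 5 higher and 3 lower after quantile normalization. No call of the list was kept with any array left out.

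**Figure D4:**
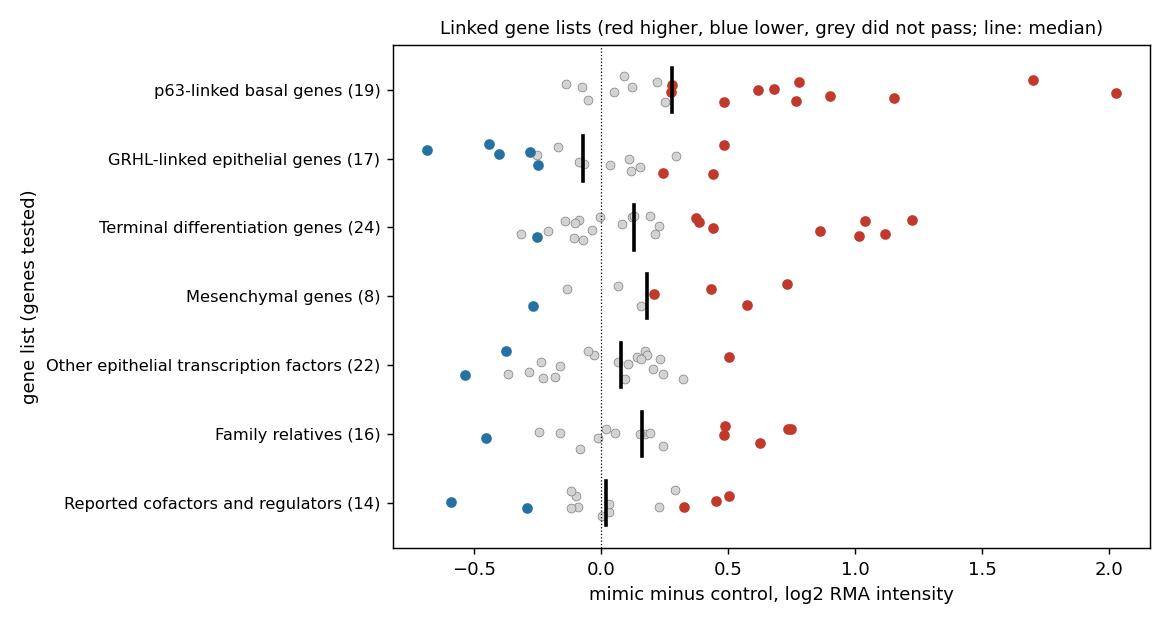
Difference of each tested gene, mimic minus control in log2 RMA intensity, in 7 lists of linked genes, with the number tested in parentheses; genes that passed are red (higher) or blue (lower), others grey, and the black line is the list's median. The p63-linked list has its 11 called genes on the right of 0, and the GRHL-linked list has 3 on the right and 5 on the left.

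**Figure D5:**
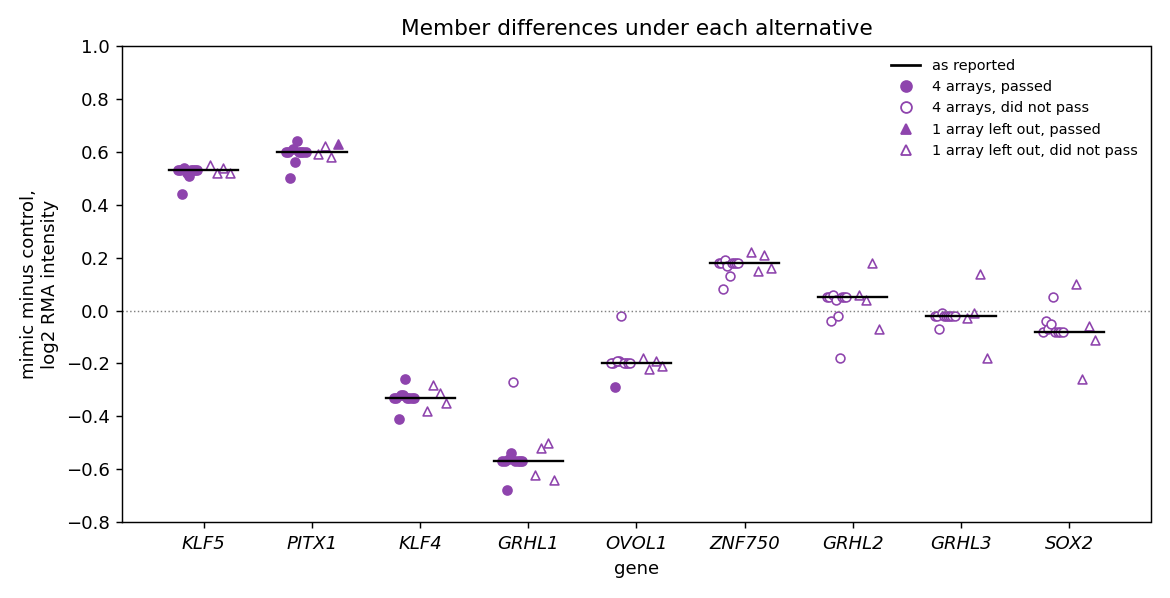
Difference of each member, mimic minus control in log2 RMA intensity, as reported (line), under the alternatives that keep all 4 arrays (circles) and with 1 array left out (triangles), filled where adjusted p was under 0.05. KLF5, PITX1, KLF4 and GRHL1 keep their sign throughout, whereas GRHL2, GRHL3 and SOX2 have values on both sides of 0.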

How the data were processed

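Total RNA (2 µg per array) was labelled with biotin and put on Affymetrix arrays of 1 colour, according to the protocols in the labels. The authors deposited 1 intensity per probe set and array, made with RMA per the submitters' processing notes, which corrects background, quantile-normalizes and summarises probes; the program was not given in the sources used here. Since the deposited intensities were linear (1.62 to 11401), log2 was taken; RMA compresses differences of dim probe sets.

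Symbols came from the platform annotation: of 49293 probe sets, 44988 had 1 symbol, 1832 several and 2473 none, and 44961 were updated by gene identifier through RefSeq (GRCh38.p14). The 30% of probe sets with the lowest mean log2 intensity (below 2.83) were left out, and the brightest probe set by mean over all arrays stood for a gene. limma 3.58.1 (R 4.3.3; lmFit, eBayes) compared mimic with control without a block, adjusted by Benjamini-Hochberg over all 14340 genes, or over 31711 probe sets; standard errors are moderated, on 4.98 degrees of freedom. It was tested on simulated data. With 2 arrays against 2, an exact permutation test has a smallest p of 0.333, and the number of arrays limits the precision.

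Members and gene lists were chosen with earlier results of these data known. From each list the text describes up to 3 genes, those of largest difference that passed without overlap; names in parentheses beside counts of 5 or fewer fall partly outside this rule and were added after their values were seen. Nearest profiles are 3 per gene, for the members of largest rise and fall. Alternatives changed the filter (none, or the lowest 50%), scaling, an offset of 8 before log2, the probe set used, the variance model, a replicate block and the arrays left out. The labels give only matching numbers, so these were not taken as pairs. Over genes, the deviations of same-numbered arrays from their group means had a correlation of -0.001. RefSeq promoter windows were found for 7 of the 10 members.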

Additional observations from a re-analysis of the deposited data

How the results depend on the processing

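Under the 10 alternatives that keep all 4 arrays, 2 members stayed higher in each, and 2 or 3 were lower except with the mean of all probe sets of a gene, where 1 was (the call of GRHL1 was lost). Member probe sets called lower numbered 1 without a filter on dim probe sets and 1 with the replicate block, against 2 as reported. Those called higher numbered 4 with the replicate block, against 5 as reported. They also numbered 4 with the lowest 50% of probe sets left out, and without _s_at and _x_at probe sets. The replicate block gave 2 members higher and 2 lower, 2918 genes in all against 4310, and changed no member's call; among list genes named here it ended those of CLDN4, OCLN, PRSS8, RAB25, ST14, ABCA12, SNAI1, TWIST2 and HDAC2 (limma, adjusted p 0.054 to 0.0978), and the GRHL-linked list had 2 higher and 1 lower. Leaving out 1 array gave 0 to 1 members higher, 0 lower, 0 to 963 genes in all, and 0 member probe sets higher and 0 lower; the fit then has fewer arrays, and the lone array is assumed to vary like the other group. The lowest adjusted p over all genes was 0.055 and 0.0551 in limma without mimic replicate 1 and 2. Differences that changed sign, in limma and never with a pass, were those of SOX2 (0.05 with the mean of its probe sets, -0.26 to 0.10 with 1 mimic array left out), GRHL2 (-0.04 after quantile normalization, -0.02 with the mean of its probe sets, -0.18 without _s_at and _x_at probe sets, -0.07 to 0.18 with 1 control array left out) and GRHL3 (-0.18 to 0.14 with 1 control array left out); the cause was not tested. Adjusted p in limma ranged from 0.000244 to 0.0771 for KLF5, 0.000398 to 0.0695 for PITX1, 0.00109 to 0.0935 for GRHL1, 0.00291 to 0.143 for KLF4 and 0.0209 to 0.785 for OVOL1. Of 140 list counts with all 4 arrays, 101 stayed within 1.5 times the reported count, and of 56 with 1 array left out, 5 did. The up to 3 genes described per list lost their call in 5 of 206 values with 4 arrays and 69 of 84 with 1 array left out, and 0 changed sign. The other 13 genes named beside a count lost theirs in 30 of 126 values with 4 arrays and all 52 with 1 array left out, and 2 values changed sign (KLF11 and TWIST2, each without _s_at and _x_at probe sets).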

Other observations

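Reported cofactors and regulators of these factors, with the grainyhead-related genes TFCP2 and UBP1, had 3 of 14 higher (TFCP2, UBP1 and CTBP2), 2 lower (FBXW7 and HDAC2) and 9 that did not pass (limma), 35.7% against the 30.1% of all genes, with a median difference of 0.02 that turned to -0.09 after quantile normalization. FBXW7, a ubiquitin ligase subunit gene reported to act on KLF5 protein, had 5.70 and 5.83 in the mimic arrays, against 6.27 and 6.45 in the control arrays (-0.59 ± 0.090 SE, limma adjusted p = 0.0117), and its 3 probe sets were all lower. TFCP2 had 7.33 and 7.21 in the mimic arrays, against 6.80 and 6.74 in the control arrays (0.50 ± 0.071 SE, limma adjusted p = 0.00942), although the mean of its 3 probe sets gave 0.19, which did not pass (limma, adjusted p = 0.0706). UBP1, measured by 1 probe set, had 8.15 and 8.23 in the mimic arrays, against 7.73 and 7.75 in the control arrays (0.45 ± 0.061 SE, limma adjusted p = 0.00836). The UBP1 probe set and the brightest of TFCP2 are of the _s_at kind. Neither gene was measured without _s_at and _x_at probe sets. The HDAC2 call was lost under 6 of 10 alternatives with all 4 arrays. With any array left out, 0 genes of this list passed, the lowest adjusted p of these 3 genes being 0.0587 in limma, without control replicate 1.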
